A study of Mus musculus with 4 samples.

Results

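Wnt ligands, their receptors, antagonists and intracellular effectors were examined in adult mouse mesoangioblasts (AdmMABs) after silencing of PW1/Peg3. The genes were chosen by name from general knowledge of the pathway, with earlier results of these data known. Of 60 listed, 59 had a probe set annotated with exactly 1 gene symbol, out of 19938 genes with such a probe set. Each gene was read from its probe set with the highest mean over the 4 arrays, and the remaining gene, Tcf7, was not analysed here. The genes were sorted into ligands (17), Frizzled receptors and coreceptors (15), antagonists (11), the R-spondin arm (6), the destruction complex with Dishevelled (6) and nuclear effectors (4 analysed).

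MABs are progenitors found along small vessels and able to give rise to muscle fibres. The cells came from the tibialis anterior of adult male C57/BL6 mice, formed a polyclonal population and were kept proliferating in serum-rich medium until RNA extraction. The shPW1 group (2 arrays) carried a lentiviral short hairpin RNA against PW1, and the shCtrl group (2 arrays) carried a lentiviral scrambled hairpin. A single hairpin was used against PW1, and the methods describe it in one lentiviral backbone while naming a control hairpin in another, without saying which backbone the control arrays carried, so an effect of the hairpin or backbone and an effect of PW1 loss cannot be told apart here. Each array was hybridised with a separate RNA extraction of its cell line, and the p-values therefore reflect variation among extractions of one culture, possibly technical only. The arrays were Affymetrix Mouse Gene ST arrays, which measure RNA of the whole culture. In such samples fewer cells of a type and less RNA per cell cannot be told apart.

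Wnt proteins are secreted lipid-modified ligands that bind Frizzled receptors together with the coreceptors Lrp5 and Lrp6. Binding recruits Dishevelled, stops a destruction complex of Axin, Apc and Gsk3 from marking beta-catenin for degradation, and lets beta-catenin act with TCF/LEF factors on target genes. R-spondins, through Lgr receptors, protect Frizzled from the ubiquitin ligases Znrf3 and Rnf43, whereas Sfrp and Dkk proteins block ligands or coreceptors. A second branch, through receptors such as Ror2, controls cell polarity and movement without beta-catenin. In muscle, Wnt signals act on satellite cells and on interstitial cells during regeneration. PW1 itself has been linked to the degradation of beta-catenin.

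Peg3, which encodes PW1, had log2 values of 6.22 and 6.47 in the shPW1 arrays, against 8.67 and 8.70 in the shCtrl arrays, a log2 change of -2.34 (standard error, SE, 0.10, limma adjusted p = 0.00428). Values are log2 expression after RMA, and each log2 change is the log2 fold change of shPW1 over shCtrl. Calls of higher or lower were made at a Benjamini-Hochberg adjusted p under 0.05 over all 21789 single-symbol probe sets. In that fit 4.93% of probe sets were higher and 4.17% were lower in shPW1 (9.1% in either direction), and the arrays of the groups did not overlap for 55.5%. Of all calls 54.2% were higher, and 68.2% were higher when each array's median was subtracted. Because no detection call was given, the 95th percentile of 1035 olfactory receptor probe sets (log2 4.95), genes used mostly by olfactory neurons, served as a yardstick of a dim signal, and 10 of the 59 Wnt genes had a mean under it.

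Of the 59 Wnt genes, 10 were lower in shPW1 and 0 were higher by limma (16.9% lower and 0% higher, against the shares over all probe sets given above). At an unadjusted p under 0.05, 16 were lower and 5 were higher (27.1% and 8.47%, against 13.6% and 14.1% of all probe sets). The methods' analysis of variance at its own thresholds called 9 lower and 2 higher (15.3% and 3.39%, against 5.35% and 6.35% of all probe sets). The lower genes included 1 ligand (Wnt10b), 4 receptors or coreceptors (Fzd6, Ror2, Lrp5, Lrp6), 2 antagonists (Sfrp2, Kremen1), the R-spondin Rspo2 with its receptor Lgr4, and the transcription factor Tcf7l1. On the log2 scale Lrp6 fell by 0.36, the smallest fall of the 10, and the largest falls were those of Sfrp2 and Lgr4. The median log2 change of the 59 genes was -0.09, beside -0.01 over all probe sets, and became -0.03 beside 0.05 when array medians were subtracted. The groups did not overlap for 31 of the 59 genes (52.5%, against 55.5% of all probe sets).

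**Figure D1:**
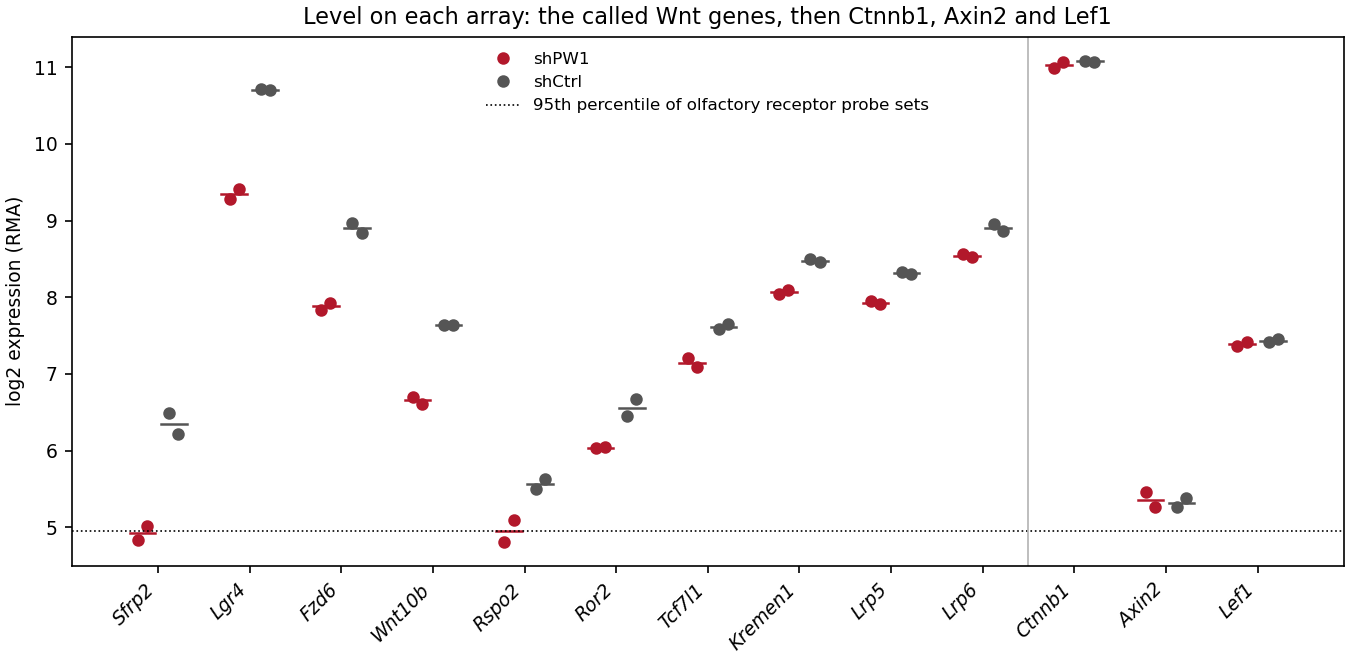
Log2 expression (vertical axis) of the 10 called Wnt genes and of Ctnnb1, Axin2 and Lef1 on each array, with 2 shPW1 arrays in red and 2 shCtrl arrays in grey and a short line at each group's mean. For each called gene both shPW1 arrays lie below both shCtrl arrays, and the shPW1 arrays of Sfrp2 and Rspo2 lie around the dotted yardstick of 4.95.

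With any 1 of the 4 arrays left out, 1 group has a single array and only the other group gives the spread. In those fits 0 of all 21789 probe sets passed limma's adjusted threshold, the targeted Peg3 included (adjusted p from 0.0795 to 0.112), so they give no calls to compare. The direction of the 10 Wnt genes could not change in these fits, because the groups of each gene did not overlap in the 4 arrays. With the replicate number as a block Wnt10b, Fzd6, Sfrp2 and Lgr4 stayed called, and with all 35556 rows tested Lgr4 did (limma adjusted p = 0.0492).

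The bases upstream of 3 genes with large falls are shown because PW1 can bind DNA, at a published motif that ends in TGGCT. RefSeq promoter windows (250 bases before to 50 after a start, build GRCm38.p6) were at hand for 41 of the 59 genes and for 5 of the 10 lower ones. Printed are the 250 bases before the start for the 3 of these with the largest falls, 5′ to 3′ on the gene's strand, with each match to TGGCT, the end of the PW1 motif, on either strand in capitals.
Sfrp2 (chr3:83766071-83766320, plus strand): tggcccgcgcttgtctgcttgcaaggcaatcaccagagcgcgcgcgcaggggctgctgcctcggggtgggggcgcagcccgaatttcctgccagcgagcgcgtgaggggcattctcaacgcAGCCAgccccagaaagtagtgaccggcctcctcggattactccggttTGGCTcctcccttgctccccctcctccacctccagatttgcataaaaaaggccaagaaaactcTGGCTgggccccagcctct
Lgr4 (chr2:109917397-109917646, plus strand): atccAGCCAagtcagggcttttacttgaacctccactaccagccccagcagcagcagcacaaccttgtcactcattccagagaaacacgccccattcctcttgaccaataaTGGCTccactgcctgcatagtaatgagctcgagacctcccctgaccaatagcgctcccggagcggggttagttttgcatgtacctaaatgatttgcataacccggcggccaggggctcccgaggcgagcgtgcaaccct
Wnt10b (chr15:98778151-98778400, minus strand): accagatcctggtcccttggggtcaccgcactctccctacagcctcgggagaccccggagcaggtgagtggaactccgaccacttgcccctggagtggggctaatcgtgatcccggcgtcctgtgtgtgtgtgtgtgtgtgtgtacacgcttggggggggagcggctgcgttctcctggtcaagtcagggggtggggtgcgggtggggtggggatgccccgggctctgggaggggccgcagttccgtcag
The whole motif was found on neither strand of any of the 50 windows of the 41 genes, and 0.484% of all 32851 windows held it. Its end, TGGCT, stood in the windows of 4 of the 5 lower genes and of 20 of the 36 other genes (55.6%), beside 66.5% of all genes with a window, so the shorter string is common. It occurred 3 times in the bases printed for Sfrp2 and 2 times in those for Lgr4. The TCF/LEF string CTTTGAT stood in 2 of the 50 windows, those of Wnt11 and Wnt5b, beside 3.73% of all windows. A string match is a description of the letters and not a binding site.

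Among the ligands, Wnt10b was lower in shPW1. Wnt10b, a ligand that acts through beta-catenin and favours bone over fat formation in mesenchymal progenitors, had log2 values of 6.70 and 6.61 in shPW1, against 7.64 and 7.64 in shCtrl. This was a log2 change of -0.99 (SE 0.06, limma adjusted p = 0.00676), or 1.98-fold lower, and the gap was far wider than that between extractions. Its closest relative Wnt10a had values of 7.87 and 7.64 in shPW1, against 8.21 and 8.10 in shCtrl. The groups of Wnt10a did not overlap, but its log2 change of -0.40 did not pass the test (limma adjusted p = 0.0837). Wnt10a was called when dim probe sets were left out (adjusted p = 0.0375), as it was when limma's prior followed a robust trend (adjusted p = 0.00471).

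The other 15 ligands were not called, with log2 changes from -0.21 (Wnt5b) to 0.18 (Wnt3). Of all 17 ligands the groups overlapped for 12, and 4 ligands (Wnt2, Wnt2b, Wnt5a and Wnt7a) lay under the yardstick of a dim signal. Wnt5a, the best known ligand of Ror2, had values of 4.34 and 4.09 in shPW1, against 3.95 and 4.23 in shCtrl. Wnt9a, whose promoter the study used as a positive control for PW1 binding, had values of 6.55 and 6.62 in shPW1, against 6.61 and 6.60 in shCtrl. Its groups overlapped, and its log2 change of -0.02 (95% interval from -0.18 to 0.14) changed sign with a second quantile normalization and with array medians subtracted.

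The receptors and coreceptors had values on both sides of 0, and those called were lower. Fzd6, a Frizzled tied to hair and tissue polarity, had log2 values of 7.84 and 7.93 in shPW1, against 8.97 and 8.84 in shCtrl, 2.03-fold lower (log2 change -1.02, SE 0.08, limma adjusted p = 0.00846). Ror2, a receptor tyrosine kinase of the beta-catenin independent branch, had values of 6.03 and 6.05 in shPW1, against 6.45 and 6.67 in shCtrl (log2 change -0.52, limma adjusted p = 0.0388). Both shPW1 arrays lay below both shCtrl arrays for each gene, with the wider spread of Ror2 among the shCtrl arrays. The call of Ror2 was lost with a second quantile normalization (adjusted p = 0.0529).

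The paired coreceptors fell by similar amounts. Lrp5 had log2 values of 7.94 and 7.92 in shPW1, against 8.33 and 8.30 in shCtrl (log2 change -0.39, SE 0.06, limma adjusted p = 0.0291). Lrp6 had values of 8.57 and 8.52 in shPW1, against 8.95 and 8.87 in shCtrl (log2 change -0.36, SE 0.06, limma adjusted p = 0.0386). These are 1.31-fold and 1.29-fold lower levels, each larger than the gap between extractions. The call of Lrp6 was lost when array medians were subtracted (log2 change -0.31, adjusted p = 0.0582).

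Other Frizzled genes had higher values in shPW1 without being called. Fzd7, a receptor of satellite cells, had log2 values of 8.86 and 8.97 in shPW1, against 8.65 and 8.61 in shCtrl (log2 change 0.28, limma adjusted p = 0.0732). Fzd2 had values of 8.69 and 8.67 in shPW1, against 8.38 and 8.42 in shCtrl (log2 change 0.28, limma adjusted p = 0.055). The groups did not overlap for either gene, and both passed once dim probe sets were removed (adjusted p = 0.0283 for Fzd7 and 0.0184 for Fzd2). Fzd2 was also called when array medians were subtracted (adjusted p = 0.036). Fzd2 and Fzd7 were also the 2 Wnt genes called higher by the methods' analysis of variance. Fzd1 had a log2 change of 0.16 and Fzd8 one of -0.25, and neither passed the test. Fzd8 was called lower with dim probe sets removed (adjusted p = 0.0254), and Fzd1 was called higher when limma's prior followed a robust trend (adjusted p = 0.0224). Ryk, a Wnt-binding receptor with an inactive kinase domain, had a log2 change of 0.08 with a 95% interval from -0.09 to 0.24. In all, 4 of the 15 receptors and coreceptors were lower, 0 were higher and 11 were not called. These shares of 26.7% lower and 0% higher stand against 4.17% and 4.93% of all probe sets, and 5.75% and 6.97% of those not dim. The groups did not overlap for 12 of the 15 (80%), against 55.5% of all probe sets and 65.1% of those not dim.

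**Figure D2:**
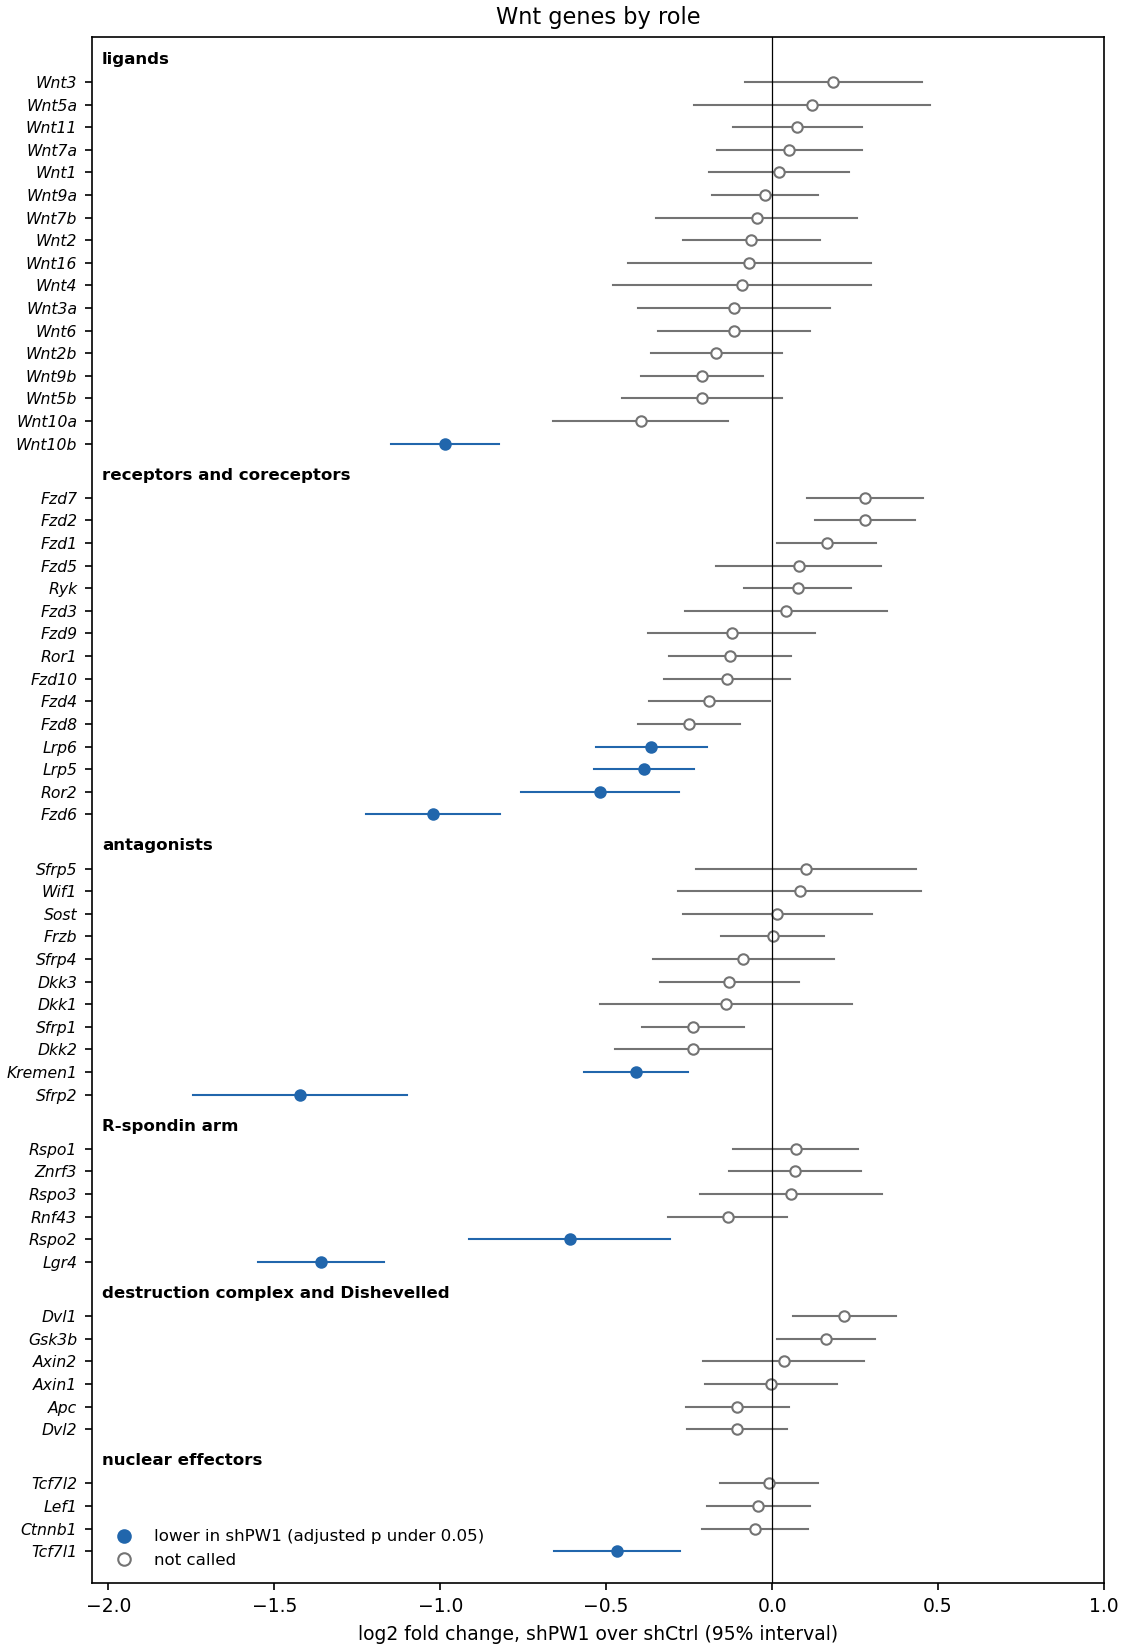
Log2 change of shPW1 over shCtrl (horizontal axis, point) with its 95% interval (line) for the 59 Wnt genes, grouped by role. Filled blue points are the 10 genes called lower, from Lrp6 at -0.36 to Sfrp2 at -1.42, and the highest open point is Fzd7 at 0.28.

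Among antagonists, Sfrp2, a secreted Frizzled-related protein that binds Wnt ligands, was lower. Sfrp2 had log2 values of 4.84 and 5.02 in shPW1, against 6.50 and 6.21 in shCtrl (log2 change -1.42, SE 0.12, limma adjusted p = 0.0113). Of its 2 shPW1 arrays 1 lay under the yardstick of a dim signal. With that array set to the yardstick, the means of Sfrp2 differed 2.58-fold, a point estimate and not a lower bound. Kremen1, the membrane receptor with which Dkk proteins remove Lrp6 from the surface, had values of 8.04 and 8.09 in shPW1, against 8.50 and 8.45 in shCtrl (log2 change -0.41, SE 0.06, limma adjusted p = 0.0283). Both arrays of each group lay close together for Kremen1 and the groups were apart.

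The other 9 antagonists were not called. Dkk2 had log2 values of 5.79 and 5.75 in shPW1, against 6.11 and 5.90 in shCtrl, with no overlap (log2 change -0.24, limma adjusted p = 0.178). Sfrp1 also had a log2 change of -0.24 (adjusted p = 0.0789), at levels under the yardstick on every array. Dkk1, an inhibitor of Lrp6 and itself a beta-catenin target, had a log2 change of -0.14 with a 95% interval from -0.52 to 0.24, and its groups overlapped. Sfrp1, Sfrp4, Sfrp5, Frzb and Wif1 had mean levels under the yardstick, and of these the log2 changes of the last 4 ran from -0.09 to 0.10.

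In the R-spondin arm a ligand and a receptor fell together. Lgr4, the receptor through which R-spondins stabilise Frizzled, had log2 values of 9.27 and 9.42 in shPW1, against 10.71 and 10.70 in shCtrl, 2.57-fold lower (log2 change -1.36, SE 0.07, limma adjusted p = 0.00573). Rspo2, an R-spondin known for its part in muscle and limb formation, had values of 4.81 and 5.10 in shPW1, against 5.51 and 5.63 in shCtrl (log2 change -0.61, SE 0.12, limma adjusted p = 0.0457). Lgr4 stayed well above the yardstick in both groups, whereas 1 of the 2 shPW1 arrays of Rspo2 lay under it. With that array set to the yardstick, the means of Rspo2 differed 1.46-fold, a point estimate and not a lower bound. The call of Rspo2 was lost with a second quantile normalization (adjusted p = 0.068) and by the methods' analysis of variance. Rspo1 and Rspo3 had log2 changes of 0.07 and 0.06, and neither passed the test. The ubiquitin ligases that this arm restrains were not called either. Znrf3 had a log2 change of 0.07 and overlapping groups, and Rnf43 had one of -0.13 (limma adjusted p = 0.292) with no overlap.

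In the destruction complex and Dishevelled group limma called 0 of 6 genes, against 9.1% of all probe sets. The methods' analysis of variance also called 0, against 6.35% higher and 5.35% lower over all probe sets. At an unadjusted p under 0.05, 2 of the 6 were higher and 0 lower, against 14.1% and 13.6% of all probe sets. Those at the unadjusted threshold were Dvl1, a Dishevelled that relays the receptor signal, with log2 values of 8.55 and 8.60 in shPW1, against 8.38 and 8.34 in shCtrl, and Gsk3b, the kinase that marks beta-catenin, with 8.90 and 8.91 in shPW1, against 8.75 and 8.74 in shCtrl. Their log2 changes were 0.22 (limma adjusted p = 0.0956) and 0.16 (adjusted p = 0.152), and both were called with a trended robust prior (adjusted p = 0.0129 for Dvl1 and 0.0324 for Gsk3b). Dvl1 was also called higher with dim probe sets removed (adjusted p = 0.0374). Apc, a scaffold of the complex, and Dvl2 had log2 changes of -0.10 and -0.11, and the scaffold Axin1 one of -0.0025.

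Among nuclear effectors the TCF factor Tcf7l1 was lower. Tcf7l1, which in stem cells mostly represses target genes, had log2 values of 7.21 and 7.09 in shPW1, against 7.58 and 7.65 in shCtrl (log2 change -0.47, SE 0.07, limma adjusted p = 0.0319). Its groups were apart by more than the spread within either. Tcf7l2, a TCF factor of the same family, had values of 8.03 and 8.06 in shPW1, against 8.06 and 8.05 in shCtrl, a log2 change of -0.01. Ctnnb1, which encodes beta-catenin, had values of 10.99 and 11.06 in shPW1, against 11.08 and 11.07 in shCtrl. Its log2 change of -0.05 had a 95% interval from -0.21 to 0.11 and turned to 0.0061 when array medians were subtracted. The arrays measure beta-catenin RNA, not the stability of the protein.

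Feedback and target genes of beta-catenin within the list were also described together. Of Axin2, Lef1, Znrf3, Rnf43 and Dkk1, 0 of 5 were called by limma, against 9.1% of all probe sets. At an unadjusted p under 0.05, 0 were higher and 0 lower, against 14.1% and 13.6% of all probe sets. The methods' analysis of variance called 0, against 6.35% higher and 5.35% lower over all probe sets. With shares this low, 0 calls among 5 genes cannot show that the set was unchanged. The mean log2 levels of Axin2 (5.34), Dkk1 (5.27) and Rnf43 (5.08) lay not far above the yardstick of a dim signal. Axin2, the most widely used reporter of the pathway, had log2 values of 5.46 and 5.26 in shPW1, against 5.27 and 5.38 in shCtrl. The groups of Axin2 overlapped, and its log2 change of 0.04 had a 95% interval from -0.21 to 0.28. Lef1 had values of 7.37 and 7.41 in shPW1, against 7.41 and 7.45 in shCtrl. Its log2 change of -0.04 had a 95% interval from -0.20 to 0.11 and turned to 0.017 when array medians were subtracted.

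**Figure D3:**
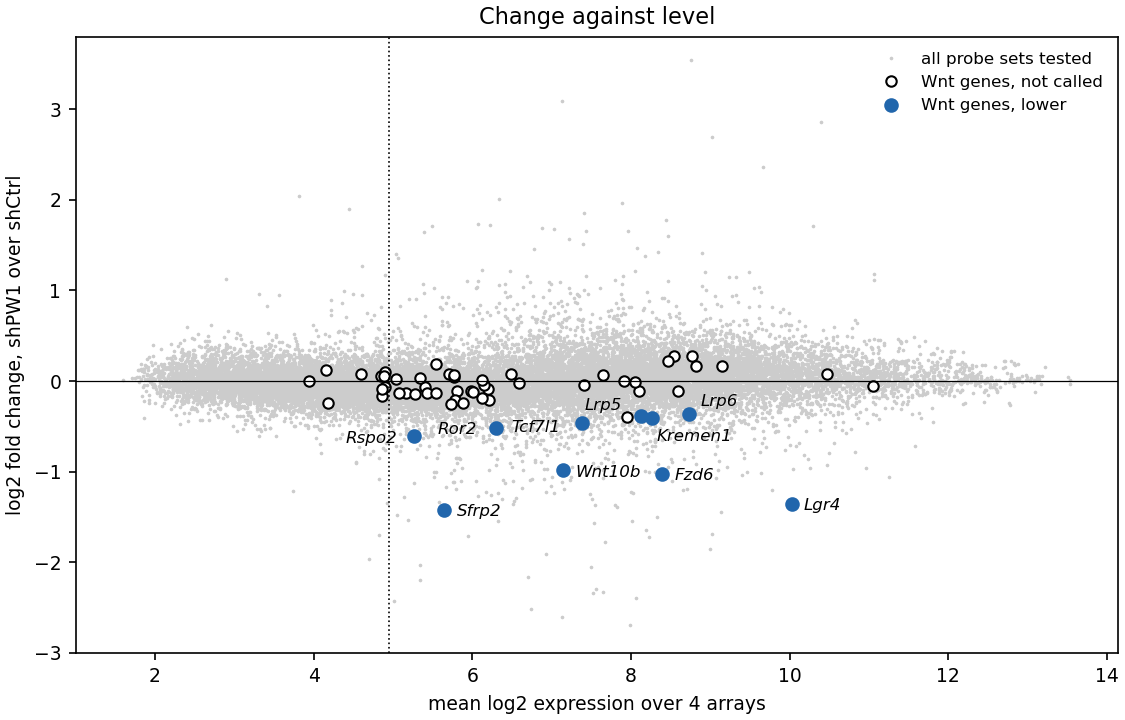
Log2 change of shPW1 over shCtrl (vertical axis) against mean log2 expression over the 4 arrays (horizontal axis) for all 21789 probe sets tested (grey) and the 59 Wnt genes (open where not called, blue where lower). The dotted line is the yardstick of a dim signal at 4.95, and the called genes lie to its right, between Rspo2 and Lgr4.

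A wider list of 110 analysed genes of the pathway gave calls in both directions, 10 higher and 9 lower (9.09% and 8.18%, against 4.93% and 4.17% of all probe sets), with 91 not called. Of these 110 genes 102 were not dim, and of all probe sets that were not dim 6.97% were higher and 5.75% lower. Outside the cell, Cthrc1, a secreted glycoprotein that stabilises Wnt complexes with Frizzled and Ror2, had log2 values of 8.21 and 8.15 in shPW1, against 9.84 and 9.90 in shCtrl (log2 change -1.69, limma adjusted p = 0.00383). Wls, the carrier that brings Wnt proteins to the surface, had a log2 change of -0.45 (limma adjusted p = 0.0213) and the glypican Gpc6 one of -0.37 (adjusted p = 0.0348). These 3 were the genes called by limma among 17 of ligand secretion and the extracellular space (17.6% lower and 0% higher). At an unadjusted p under 0.05, 4 of the 17 were lower and 1 was higher, against 13.6% and 14.1% of all probe sets. The methods' analysis of variance called 3 lower and 1 higher, the antagonist Dkk4, against 5.35% and 6.35% of all probe sets. When array medians were subtracted, the call of Gpc6 was lost (adjusted p = 0.056).

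Among 8 other receptors 3 were lower and 0 were higher by limma (37.5% and 0%, against 4.17% and 4.93% of all probe sets). Lgr6, a relative of Lgr4 and likewise an R-spondin receptor, had log2 values of 5.99 and 6.08 in shPW1, against 7.33 and 7.12 in shCtrl (log2 change -1.19, SE 0.09, limma adjusted p = 0.00868). The third R-spondin receptor, Lgr5, lay under the yardstick, with 4.55 and 4.44 in shPW1, against 4.39 and 4.49 in shCtrl. Lrp4, which binds agrin at the neuromuscular synapse and also Wnt antagonists, had a log2 change of -0.62 (limma adjusted p = 0.0167). Adgra2, which with Reck helps cells respond to Wnt7 ligands, had one of -0.35 (adjusted p = 0.0355). That call was lost when array medians were subtracted (adjusted p = 0.0664). No receptor of these 8 had an unadjusted p under 0.05 in the higher direction, against 14.1% of all probe sets. The methods' analysis of variance called 0 of them higher, against 6.35% of all probe sets.

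Inside the cell calls went in both directions, at shares not far from those of all probe sets. Of the cytoplasmic genes 8.7% were higher and 4.35% lower, and of the nuclear genes 5.88% and 0%. Over all probe sets 4.93% were higher and 4.17% lower, and of those not dim 6.97% and 5.75%. Of 23 cytoplasmic genes Dvl3, another Dishevelled, was higher (log2 change 0.42, limma adjusted p = 0.0354), as was Csnk1g1, a casein kinase that phosphorylates Lrp6 (0.31, adjusted p = 0.0426). Tnks, a tankyrase that promotes Axin turnover, was lower (log2 change -0.45, limma adjusted p = 0.0236). Of 17 nuclear genes Nlk, a kinase acting on TCF/LEF factors, was higher (log2 change 0.35, limma adjusted p = 0.0378). Of 20 genes of the polarity and calcium branch 0 were called by limma, against 9.1% of all probe sets, and 0 by the methods' analysis of variance. At an unadjusted p under 0.05, 1 of the 20 was lower and 0 were higher, against 13.6% and 14.1% of all probe sets.

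Known beta-catenin targets outside the 59 genes included 7 higher and 2 lower of 25 (28% and 8%, against 4.93% and 4.17% of all probe sets and 6.97% and 5.75% of those not dim). Bmp4, a bone morphogenetic protein, had log2 values of 7.72 and 7.78 in shPW1, against 6.90 and 6.87 in shCtrl (log2 change 0.86, SE 0.06, limma adjusted p = 0.00742). Ccn5, a matricellular protein, had a log2 change of 0.53 (adjusted p = 0.0202), Fosl1, a subunit of AP-1, one of 0.53 (adjusted p = 0.0189) and cyclin D1 (Ccnd1) one of 0.49 (adjusted p = 0.0209). Gja1, Vegfa and Cd44 were the other higher genes, and Id2 and Sp8 were the lower ones. Of the feedback genes of the pathway on the wider list, Sp5 had a log2 change of -0.01, Nkd1 one of -0.0013 and Notum one of 0.14. Nkd2 had one of -0.12, Apcdd1 one of 0.16 and Dkk4 one of 0.28 (limma adjusted p = 0.0738). None of them passed the test. The groups of Nkd2, Apcdd1 and Dkk4 did not overlap, as was so for 55.5% of all probe sets and 65.1% of those not dim. Dkk4 was called higher by the methods' analysis of variance.

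**Figure D4:**
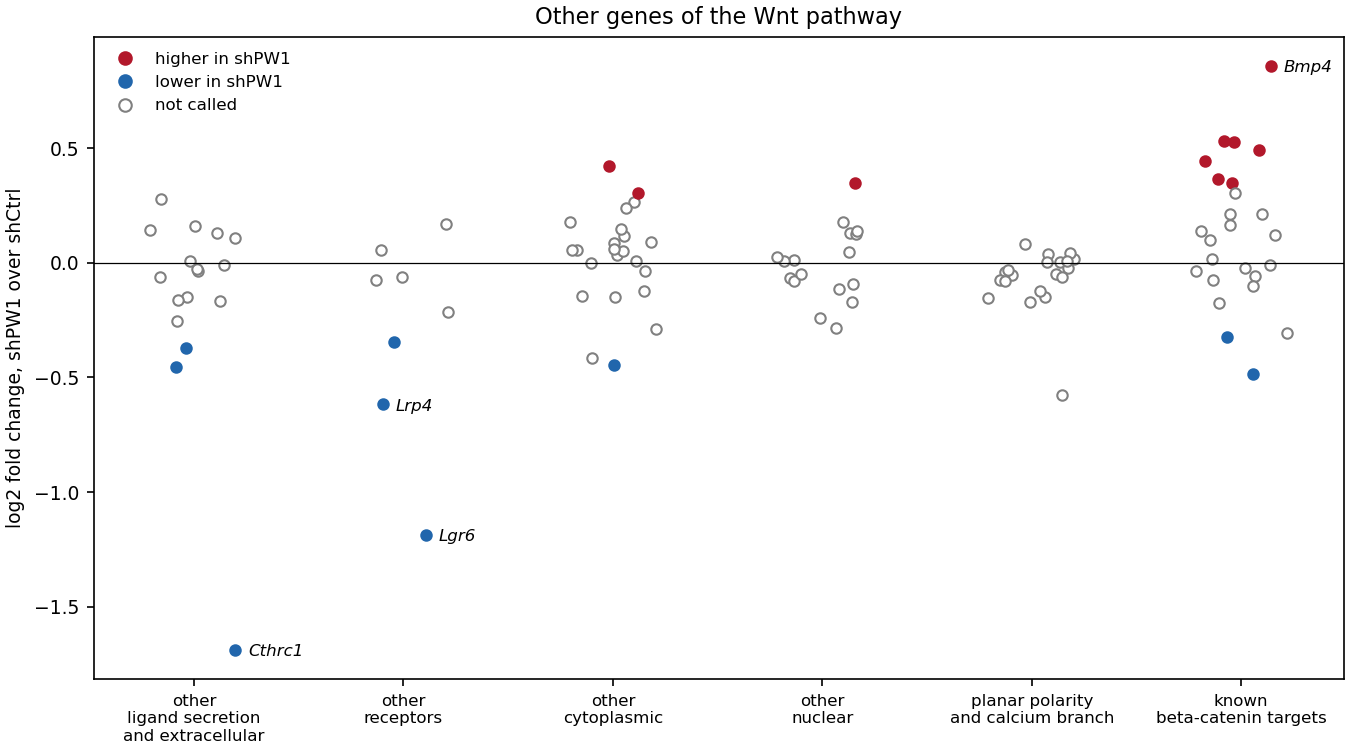
Log2 change of shPW1 over shCtrl (vertical axis) for 110 further genes of the pathway by role (horizontal axis), with 1 point for each gene (higher in red, lower in blue, not called open). Extracellular genes and receptors have calls on the lower side, down to Cthrc1 at -1.69, and beta-catenin targets reach 0.86 for Bmp4.

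Markers of cell types that the cultures could hold moved with the Wnt genes in part. Of 6 myoblast and satellite cell markers 4 were lower (Myod1, Cdh15, Des and Chrna1), or 66.7%, against 4.17% of all probe sets. Myf5 had values of 9.04 and 9.01 in shPW1, against 8.92 and 8.84 in shCtrl (log2 change 0.15), and Pax7 had a log2 change of -0.03. Neither was called. The mean log2 level of the 6 was 7.98 and 7.98 in the shPW1 arrays, against 8.53 and 8.58 in the shCtrl arrays. Of 7 mesoangioblast and pericyte markers 4 were lower (Pdgfrb, Cspg4, Mcam and Anpep, 57.1%), with mean levels of 7.63 and 7.60 in shPW1, against 7.94 and 7.97 in shCtrl. Acta2 had a log2 change of 0.16 with no overlap but was not called (limma adjusted p = 0.176). Of 5 fibro-adipogenic markers 2 were lower (Pdgfra and Dcn, 40%), with means of 7.36 and 7.40 in shPW1, against 7.75 and 7.72 in shCtrl. The part of these shifts in the Wnt results was not tested. Of the markers of the labelled cell type, Acta2 and Pdgfrb were far above the yardstick in both groups, alkaline phosphatase (Alpl) averaged 5.76 in shPW1 and 5.85 in shCtrl, and Rgs5 lay under the yardstick. Endothelial and leukocyte lists had 0 of 6 and 0 of 7 markers called by limma, with mean levels between 4.34 and 4.63 on every array, with 0 called by the methods' analysis of variance and only Cd3e at an unadjusted p under 0.05 (0.048). Under the yardstick lay 4 of the 6 endothelial and 5 of the 7 leukocyte markers, Pecam1, Kdr and Ptprc among them. Cdh5 (mean 5.06), Tie1 (5.18), Cd3e (5.33) and Cd68 (5.99) lay above it.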

How the data were processed

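Each of the 4 samples was hybridised to its own Affymetrix Mouse Gene ST array. The deposited values are log2 expression that the authors obtained by RMA with Partek (6.4 according to the submitters' processing notes), so background correction, normalization between arrays and summarization into probe sets were done before deposit and not repeated. The genome build is not given in the sources used here.

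Of 35556 rows, 21789 had exactly 1 gene symbol in the array's annotation and were tested, while 1621 with several and 12146 with none were left out. The contrast of shPW1 with shCtrl was fitted by limma 3.58.1 (lmFit, then eBayes, under R 4.3.3) with 2 residual and 2.72 prior degrees of freedom, two-sided p-values and Benjamini-Hochberg adjustment over all probe sets tested. The fit was tested on simulated data. No depth exists for arrays, and their number limits the precision. The alternatives were removal of dim probe sets, testing of all rows, quantile normalization applied again, centring of each array on its median, a prior with robust trend, the methods' analysis of variance (p under 0.05 and a fold change over 1.2, and adjusted), the replicate number as a block, another probe set per gene and leaving out each array.

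The Wnt genes and lists were chosen with earlier results of these data known. Named genes were Peg3, every called Wnt gene, in each role the gene with the highest mean and the uncalled gene with the largest change, Ctnnb1, Axin2, Lef1 and Wnt9a, and up to 4 called genes per role of the wider list. Other genes were named after their values were seen. Promoter sequences are from RefSeq (GRCm38.p6), and strings were searched with Python 3.11.15.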

Additional observations from a re-analysis of the deposited data

How the results depend on the processing

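The 10 Wnt genes called lower were picked for their calls on these same arrays, and their groups did not overlap. Their direction could therefore change only with a second quantile normalization or with array medians subtracted, and there it did not. All 10 stayed called with a trended robust prior (11 lower and 5 higher in all). With dim probe sets left out 12 were lower and 3 higher, but that filter uses the mean of all arrays and Sfrp2 passed it through its shCtrl arrays, so its call there is no sign of stability. By the methods' analysis of variance at its own thresholds 2 were higher, and when array medians were subtracted 1 was higher. With all rows tested 1 Wnt gene was lower, and by the methods' analysis of variance after adjustment 0 were. With the replicate number as a block 4 Wnt genes were lower, as with the crossed pairing. Without any single array, where 1 group has a single array assumed to vary like the other group, 0 Wnt genes were called in either direction by limma (13 to 16 lower and 1 to 3 higher at an unadjusted p under 0.05), and the lowest adjusted p of the 10 lay between 0.085 and 0.112.

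Of the wider list, 14 genes were higher and 14 lower with dim probe sets left out, and 17 were higher and 13 lower with the trended prior. With all rows tested 0 were higher and 1 was lower, after adjustment of the methods' test 0 and 0, and with the block 1 was higher and 3 were lower. Leave-one-out gave 0 to 0 in both directions.

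Over all probe sets, 1943 were higher and 1650 lower with dim probe sets left out, 36 and 50 with all rows, 2735 and 1978 with the trended prior, and 1 and 1 after adjustment of the methods' test. Subtracting array medians gave 1627 higher, against 1075 in the main fit, and the block gave 256 higher and 258 lower. Leave-one-out gave 0 in each direction by limma, with 1899 to 2706 higher and 1891 to 2673 lower at an unadjusted p under 0.05. The deviations of same-numbered arrays correlated at -0.105. With 2 arrays per group the crossed pairing gives the same value with the opposite sign, so this cannot tell whether any arrays shared a batch. The crossed replicate block, chosen after seeing the data, gave 213 probe sets higher and 224 lower, 1 and 2 of the wider list, and 4 lower Wnt genes.

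Among single genes, the sign turned for Ctnnb1 (0.0061) and Lef1 (0.017) when array medians were subtracted, and for Wnt9a (0.0058 with a second quantile normalization, 0.037 with array medians subtracted). With 1 array left out, the log2 change of Axin2 ran from -0.062 to 0.13 and that of Wnt9a from -0.057 to 0.015. The cause of these changes was not tested.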

Other observations

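Several Wnt genes are neighbours of another gene of the list in the RefSeq gene order, in 5 pairs. Wnt10b lies next to Wnt1 on chromosome 15. Wnt10b was lower in shPW1 (log2 change -0.99), whereas Wnt1 had log2 values of 5.10 and 4.99 in shPW1, against 4.95 and 5.10 in shCtrl, with overlapping groups. Wnt10a lies next to Wnt6 on chromosome 1, and Wnt6 had a log2 change of -0.11 with overlapping groups, beside -0.40 for Wnt10a. Kremen1 lies next to Znrf3 on chromosome 11, with a log2 change of -0.41 for Kremen1 and 0.07 for Znrf3. On the same chromosome Wnt3a (-0.11) lies next to Wnt9a (-0.02), and Wnt9b (-0.21) next to Wnt3 (0.18), and none of these 4 genes was called. Differences between the genes of a pair were not tested.

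Wnt4 was the only one of the 59 genes with more than 1 single-symbol probe set, and its 2 probe sets differed. The brighter one had log2 values of 6.35 and 5.95 in shPW1, against 6.17 and 6.30 in shCtrl. The dimmer one had 5.68 and 5.56 in shPW1, against 6.14 and 5.96 in shCtrl, a log2 change of -0.43 with no overlap (limma adjusted p = 0.0577). Neither passed the test.

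In the polarity and calcium branch Nfatc4, a calcium-regulated transcription factor named after its value was seen, had log2 values of 5.35 and 5.05 in shPW1, against 5.80 and 5.74 in shCtrl (log2 change -0.58, limma adjusted p = 0.0507), and did not pass the test.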
